A study of Mus musculus with 3 samples.

Results

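*Cd34*, *Lgr5*, *Lgr6*, *Lhx2*, *Sox9*, *Nfatc1*, *Postn* and *Barx2* are 8 genes, of 32285 in the files, that are used as markers of hair follicle bulge stem cells. They were chosen by name, and their unique molecular identifiers (UMIs, 1 per captured mRNA molecule) were counted in keratinocytes of mouse dorsal skin profiled by droplet-based scRNA-seq. Each of the 3 groups is 1 library of skin pooled from 7 to 8 female C3H/HeN mice at 25 weeks of age, so the data hold no replicate of any group and the animals cannot be told apart. The Neg library is the negative control, which is labelled as given vehicle and is described in the design text as unaffected mice. The AA library comes from the alopecia areata (AA) model, which receives cultured skin-draining lymph node cells of affected mice. The AA+Ab library comes from the same model under an antibody that neutralizes the chemokine CXCL12, and its dose is not given in the sources used here. Cells with at most 10% mitochondrial UMIs and at least 200 genes were kept. Of these 26847 cells, the 20569 with no UMI of *Ptprc* (CD45) and at least 10 UMIs of the keratins *Krt5* and *Krt14* together are called gated keratinocytes. They were 5084 of 6582 cells in Neg, 8176 of 10433 in AA and 7309 of 9832 in AA+Ab.

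The bulge is the part of the outer root sheath where the slow-cycling stem cells of the hair follicle reside between growth phases. Activated cells leave it to feed the hair germ, the matrix and the lower outer root sheath, while other stem cell pools serve the upper follicle and the epidermis between follicles. CD34 is a surface sialomucin of the mouse outer bulge and is also carried by dermal fibroblasts and endothelium. LGR5 and LGR6 are receptors for R-spondins, which amplify Wnt signals, and mark cycling lower follicle and upper follicle or epidermal progenitors, respectively. LHX2, SOX9, NFATC1 and BARX2 are transcription factors: LHX2 and SOX9 are needed to form and keep the bulge, and NFATC1 holds its cells in quiescence. Periostin, the product of *Postn*, is a matricellular protein laid down at the basement membrane.

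In the mm10 assembly (GRCm38), *Cd34* lies on chr1:194938819-194961279 and *Lgr6* on chr1:134983301-135105276. *Lgr5* lies on chr10:115450311-115587780, *Lhx2* on chr2:38339281-38369733, *Sox9* on chr11:112782224-112787760, *Postn* on chr3:54361109-54391037 and *Barx2* on chr9:31846044-31913462. All are protein-coding. Genes on the opposite strand overlap *Cd34*, *Lgr5*, *Lhx2*, *Nfatc1* and *Barx2*, and the strand setting of the counting is not stated in the sources used here.

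For 4 members, the 250 bases before the transcription start are shown 5′ to 3′ on the strand of the gene (RefSeq, GRCm38.p6). Windows of *Lgr5*, *Sox9*, *Nfatc1* and *Barx2* are not shown, and the choice did not rest on the counts. *Lgr6* is the R-spondin receptor with an entry in the table. In cells, *Cd34* and *Lhx2* were found together. *Postn* was found less often with *Lhx2* than without it (34.4%, 38.4% and 32.6% of cells against 59.7%, 61.1% and 60.6%, at the full depth of each cell). Capitals mark matches, on either strand, to short motifs of the factor families that the members belong to or signal through.
Cd34, chr1:194938571-194938820: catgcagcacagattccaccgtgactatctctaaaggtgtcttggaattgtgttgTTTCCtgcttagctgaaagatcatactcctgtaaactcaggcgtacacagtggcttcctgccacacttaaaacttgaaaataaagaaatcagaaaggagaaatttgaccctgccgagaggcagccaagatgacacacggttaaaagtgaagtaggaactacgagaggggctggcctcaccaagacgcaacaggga
Lhx2, chr2:38339031-38339280: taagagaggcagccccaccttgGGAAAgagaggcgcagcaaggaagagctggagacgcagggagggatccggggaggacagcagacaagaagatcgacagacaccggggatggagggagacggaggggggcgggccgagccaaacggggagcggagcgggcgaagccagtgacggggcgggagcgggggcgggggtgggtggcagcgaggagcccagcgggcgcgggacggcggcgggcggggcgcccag
Lgr6, chr1:135105277-135105526: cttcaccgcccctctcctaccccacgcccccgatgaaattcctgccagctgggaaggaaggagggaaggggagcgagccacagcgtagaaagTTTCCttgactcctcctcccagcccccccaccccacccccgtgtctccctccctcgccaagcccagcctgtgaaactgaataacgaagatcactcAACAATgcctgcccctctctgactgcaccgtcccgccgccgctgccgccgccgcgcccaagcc
Postn, chr3:54360857-54361106: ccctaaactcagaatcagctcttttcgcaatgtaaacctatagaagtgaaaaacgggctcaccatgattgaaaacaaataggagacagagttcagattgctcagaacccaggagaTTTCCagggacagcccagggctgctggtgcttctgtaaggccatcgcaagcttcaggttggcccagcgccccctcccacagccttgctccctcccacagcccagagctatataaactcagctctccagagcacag
The motifs searched were TAATTA of LIM homeodomain factors, AACAAT of SOX factors, CTTTGA of TCF/LEF factors and GGAAA of NFAT factors. Each of the 4 windows holds 1 match to GGAAA (written TTTCC where it is on the other strand), as do 55.6% of the 32817 windows of this length in the table. The *Lgr6* window also holds AACAAT, which 9.42% of windows do. None of the 4 holds TAATTA or CTTTGA, found in 4.85% and 13.8% of windows. The number of CpG sites is 25 in *Lhx2* and 16 in *Lgr6*, against 6 in *Cd34*, 4 in *Postn* and a median of 6 over all windows. These matches describe letters and not binding.

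The gated keratinocytes held 100888098 UMIs in Neg, 115313224 in AA and 112139803 in AA+Ab, with medians of 14326, 11732 and 11923 UMIs per cell. The libraries shared 17 to 28 barcodes with each other, at most 0.266% of a library. The 6 keratinocyte markers *Krt5*, *Krt14*, *Col17a1*, *Itgb4*, *Trp63* and *Dsp* summed to 11029 counts per 1000000 UMIs (CPM) in Neg, 13615 in AA and 12083 in AA+Ab, and none was at 0. *Krt15*, a keratin of the bulge and of basal cells, was at 3184, 3332 and 3214 CPM. The endothelial list was at 10.6, 6.56 and 7.29 CPM, and its defining marker *Cdh5* at 0.0297, 0.0260 and 0.0446. *Cldn5* was at 0 in AA+Ab. The fibroblast list summed to 271, 267 and 345 CPM, of which *Dcn* alone gave 254, 242 and 337. The muscle list (321, 69.8 and 30.4 CPM), the melanocyte list (325, 203 and 252) and the immune list (21.6, 71.6 and 23.8, with *Ptprc* at 0 by the gate, and *Cd74* alone at 13.3, 63.9 and 17.0) also differed between libraries, and their part in the results below was not tested. Subsets of the gate were set by keratins and cycling genes, and their shares differed: cells of the hair lineages were 14.5% of the gate in Neg, 7.90% in AA and 10.7% in AA+Ab. The hair lineage, upper follicle and cycling subsets rest on UMI minima that were not adjusted for depth, and the median depth was highest in Neg.

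Of the 8 members, 6, all except *Lgr6* and *Lhx2*, had their highest level in the AA library (plot of levels by library). The share of all genes with their highest level in AA was not counted. In AA over Neg, 3 members were past 1.5-fold higher (*Nfatc1*, *Sox9* and *Postn*) and 0 lower, where 4.99% of the 17055 genes with enough UMIs were past 1.5-fold higher and 9.36% lower (14.4% in either direction). In AA+Ab over AA, all 8 members had a ratio below 1, beside a median log2 ratio of −0.004 over all genes. This direction held in 15 of 15 alternative settings for *Lgr5*, *Lgr6* and *Nfatc1*. It held in 14 for *Cd34*, 13 for *Lhx2* and *Postn*, 12 for *Sox9* and 11 for *Barx2*. Of the members, 2 (*Lgr5* and *Cd34*) were past 1.5-fold lower, beside 9.53% of genes, and 0 were higher, beside 4.66% (14.2% in either direction). In AA+Ab over Neg the same pair was past 1.5-fold lower (*Lgr5* in 13 and *Cd34* in 7 of 15 alternative settings), beside 9.6% of genes, and 0 were higher, beside 2.17% (11.8% in either direction). The median log2 ratio of the members was 0.46, −0.30 and −0.04 in these comparisons, and that of all genes −0.08, −0.004 and −0.08. Each pair of comparisons shares a library, so the opposite directions in the first pair are not independent. With 1 library per group no test between groups was possible, and the 95% intervals given here cover counting error only. Those of levels and ratios take each UMI as independent, although most UMIs of some members lay in few cells. They do not cover differences between mice or between the cells sampled, and are too narrow for these. Relative to the median of all genes, 1112 genes were higher and 1293 lower past 1.5-fold in AA over Neg, in place of 851 and 1597.

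**Figure D1:**
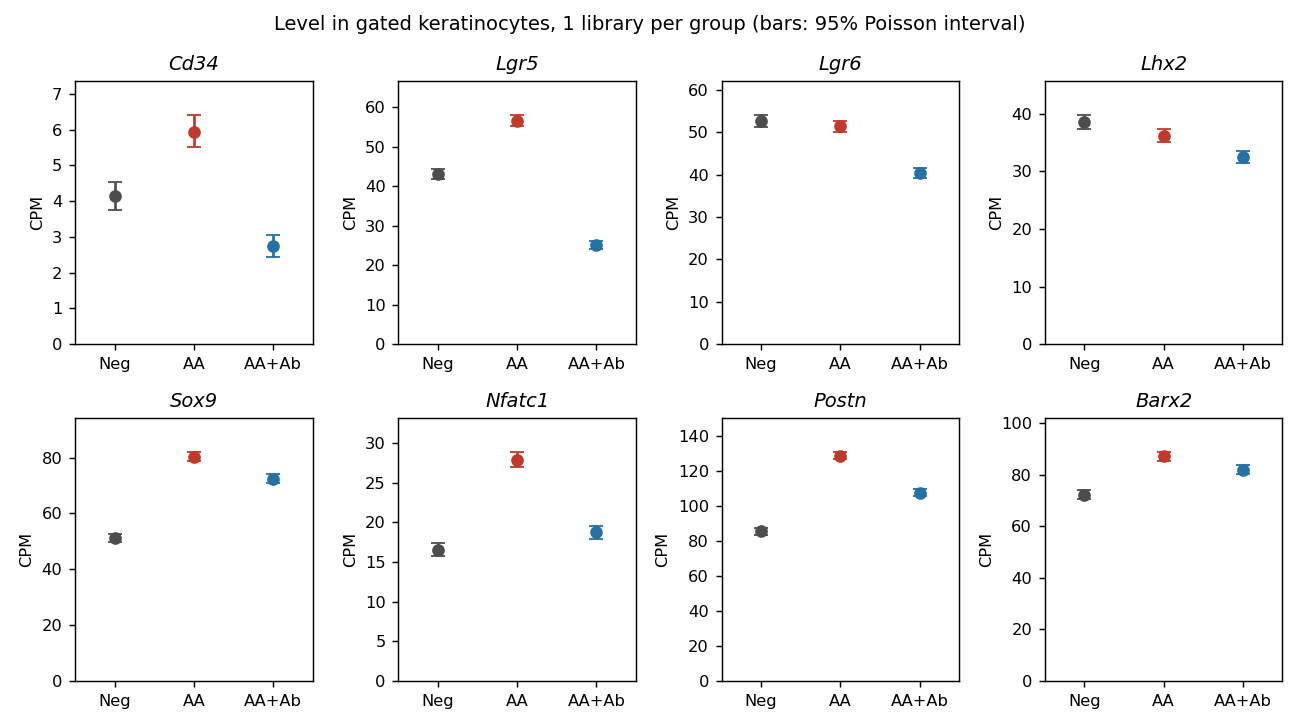
Level of each gene in gated keratinocytes, in CPM on axes that start at 0, with 1 point per library and bars for the 95% Poisson interval. *Lgr5* was at 56.5 CPM in AA and 25.0 in AA+Ab, and the Neg and AA intervals overlap only for *Lgr6*.

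Of the R-spondin receptors, *Lgr5* was counted at 43.0 CPM in Neg (interval, 41.7 to 44.3), 56.5 in AA (55.1 to 57.9) and 25.0 in AA+Ab (24.1 to 26.0). The AA library was highest, the AA+Ab library lowest, and no intervals overlapped. The ratio was 1.31 (1.26 to 1.37) for AA over Neg, 0.443 (0.424 to 0.463) for AA+Ab over AA and 0.582 (0.555 to 0.611) for AA+Ab over Neg. Few cells carried most of it: the 261, 330 and 180 cells with at least 5 *Lgr5* UMIs held 86.3%, 88.2% and 76.0% of its UMIs. In AA, 50.7% of *Lgr5* UMIs were in the cells with most UMIs (10.6% of the gate, with 25.5% of its UMIs). In Neg the value was 23.4% (6.90% of the gate, with 22.8% of its UMIs). Those are the cells with most UMIs of each library, taken at 0.8% per 1000 barcodes as a rate for doublets, so a larger share was taken in libraries with more barcodes. Without them the log2 ratio of AA over Neg was −0.19 in place of 0.39, and without cells with 2 or more UMIs of the fibroblast, endothelial, muscle or melanocyte lists it was 1.29, while in the remaining subset described below it was 0.80. Without the cells with most UMIs that of AA+Ab over AA was −0.87 in place of −1.17. A gate that asks for *Krt5* and *Krt14* to make up 1% of a cell's UMIs left AA+Ab over AA at −0.50 and AA+Ab over Neg at 0.03.

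*Lgr6* was spread over many cells. It was at 52.6 CPM in Neg (51.2 to 54.0), 51.4 in AA (50.1 to 52.7) and 40.4 in AA+Ab (39.2 to 41.6). The Neg and AA libraries did not differ beyond counting error (ratio 0.978, 0.942 to 1.01), and AA+Ab was below both (ratio to AA 0.786, 0.756 to 0.817). A UMI of *Lgr6* was found in 40.0%, 31.6% and 29.9% of gated cells, and after each cell was thinned to 5000 UMIs in 20.2%, 17.9% and 15.8%. Cells with at least 5 UMIs held 39.4%, 32.6% and 24.9% of its UMIs.

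*Cd34*, the classical surface marker, was rare in the gate. It gave 417 UMIs in 117 cells of Neg, 685 in 184 cells of AA and 307 in 143 cells of AA+Ab, which are 4.13, 5.94 and 2.74 CPM. The AA library was highest and AA+Ab lowest, with ratios of 1.44 (1.27 to 1.63) for AA over Neg, 0.461 (0.401 to 0.528) for AA+Ab over AA and 0.662 (0.570 to 0.769) for AA+Ab over Neg. The share of cells with a UMI differed less, at 2.30%, 2.25% and 1.96%. It was 0.631%, 0.353% and 0.519% in *Ptprc*-positive cells with fewer than 10 keratin UMIs, which had median depths of 4852, 3938 and 3918 UMIs. Thinned to 2000 UMIs, the shares were 0.731%, 0.990% and 0.530% in the gate against 0.377%, 0.125% and 0.173% in those cells. Collagen transcripts moved with *Cd34*: the 29, 56 and 17 gated cells with at least 5 *Cd34* UMIs carried *Col1a2* at 547, 1013 and 207 CPM, against 6.40, 9.46 and 2.63 in the whole gate. Removing every cell with 2 or more UMIs of the fibroblast list other than *Dcn* left log2 ratios of 0.57, −0.92 and −0.35. They were in place of 0.52, −1.12 and −0.59, so that AA+Ab over Neg was no longer past 1.5-fold. The removed cells held 22.1%, 19.0% and 6.19% of the *Cd34* UMIs of the gate. Cells with fewer UMIs of the list stayed in, so the whole part of fibroblast RNA in these values was not measured. The AA+Ab over Neg ratio stayed past 1.5-fold in 7 of 15 settings. The AA over Neg value was 0.19 without cells with 2 or more UMIs of the fibroblast, endothelial, muscle or melanocyte lists, 0.12 with at least 30 keratin UMIs and 0.26 with the subsets described below at their Neg shares. With the gate at 1% keratin, AA over Neg was −0.58 and AA+Ab over AA 0.15, so the order of the libraries for *Cd34* depends on the gate.

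Of the transcription factors, *Lhx2* was at 38.5 CPM in Neg (37.3 to 39.7), 36.2 in AA (35.1 to 37.3) and 32.5 in AA+Ab (31.4 to 33.5). Its ratios were all within 1.5-fold, at 0.939, 0.898 and 0.843. Neg was highest and the differences were small. The cells with most UMIs (6.90%, 10.6% and 10.0% of the gate) held 24.9% of *Lhx2* UMIs in Neg, 54.7% in AA and 46.4% in AA+Ab. Without them the log2 ratio of AA over Neg was −0.77, and without the hair lineages it was 0.03.

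*Sox9* was at 51.1 CPM in Neg (49.7 to 52.5), 80.3 in AA (78.7 to 82.0) and 72.5 in AA+Ab (70.9 to 74.1). Both AA libraries were above Neg, with ratios of 1.57 (1.52 to 1.63) and 1.42 (1.37 to 1.47), and AA+Ab over AA was 0.902 (0.876 to 0.930). The direction of both ratios to Neg held under 15 of 15 alternative settings, and the log2 ratio of AA over Neg ranged from 0.54 to 0.79, past 1.5-fold in 12 of them. Cells with at least 5 UMIs were 6.02%, 6.57% and 6.75% of the gate and held 77.7%, 80.2% and 76.0% of *Sox9* UMIs.

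*Nfatc1*, on chr18:80606205-80713071 (GRCm38), had the largest AA over Neg ratio of the 8 genes. It was at 16.6 CPM in Neg (15.8 to 17.4), 27.9 in AA (27.0 to 28.9) and 18.7 in AA+Ab (17.9 to 19.6). AA stood above both other libraries, whose intervals did not overlap either. The ratio was 1.68 (1.59 to 1.79) for AA over Neg, 0.671 (0.635 to 0.710) for AA+Ab over AA and 1.13 (1.06 to 1.21) for AA+Ab over Neg, and the direction of each held under 15 of 15 settings. It was found in more cells rather than at higher counts: 24.7% of AA cells had a UMI, against 20.0% in Neg and 19.3% in AA+Ab, and only 59 AA cells had 5 or more. At 5000 UMIs per cell the shares were 7.99%, 12.9% and 9.43%. *Ptprc*-positive cells carried it too, at 41.0, 75.6 and 41.4 CPM, so these cells do not give a background for this gene. NFATC1 is a factor of activated lymphocytes. Within the gate *Cd74*, which carried the immune list, was also highest in AA. So was *Cd52* of that list, at 4.25 CPM in Neg, 5.24 in AA and 3.57 in AA+Ab. The T cell marker *Cd3e* was instead lowest in AA, at 2.11 CPM in Neg, 0.746 in AA and 1.20 in AA+Ab. *Tyrobp* (1.26 CPM in Neg and 1.11 in AA) and *Laptm5* (0.724 and 0.624) were slightly lower in AA than in Neg. The part of *Cd74*, *Cd52* or other immune RNA in the *Nfatc1* ratio was not tested.

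*Barx2* was at 72.3 CPM in Neg (70.6 to 73.9), 87.0 in AA (85.3 to 88.7) and 81.9 in AA+Ab (80.2 to 83.6). Its ratios were 1.20 (1.17 to 1.24), 0.941 (0.915 to 0.968) and 1.13 (1.10 to 1.17), all within 1.5-fold. Both AA libraries were above Neg, in 15 of 15 settings each. A UMI was found in 45.4%, 45.4% and 46.5% of cells, and at 5000 UMIs in 25.1%, 28.7% and 29.5%.

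*Postn*, the matrix gene of the set, was at 85.5 CPM in Neg (83.7 to 87.3), 129 in AA (127 to 131) and 108 in AA+Ab (106 to 110). The order AA, AA+Ab, Neg was the same as for *Sox9*, *Nfatc1* and *Barx2*. The ratio was 1.51 (1.47 to 1.55) for AA over Neg, just past 1.5-fold. It stayed past 1.5-fold in 4 of 15 settings, although the direction held in all of them. The lowest log2 ratio of these settings was 0.30 in place of 0.59, with the subsets described below at their Neg shares. AA+Ab over AA was 0.836 (0.816 to 0.856) and AA+Ab over Neg 1.26 (1.22 to 1.29). More than any other subset, the cells left after the others were removed carried it, and at 5000 UMIs it was found in 31.3%, 38.8% and 37.0% of gated cells.

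**Figure D2:**
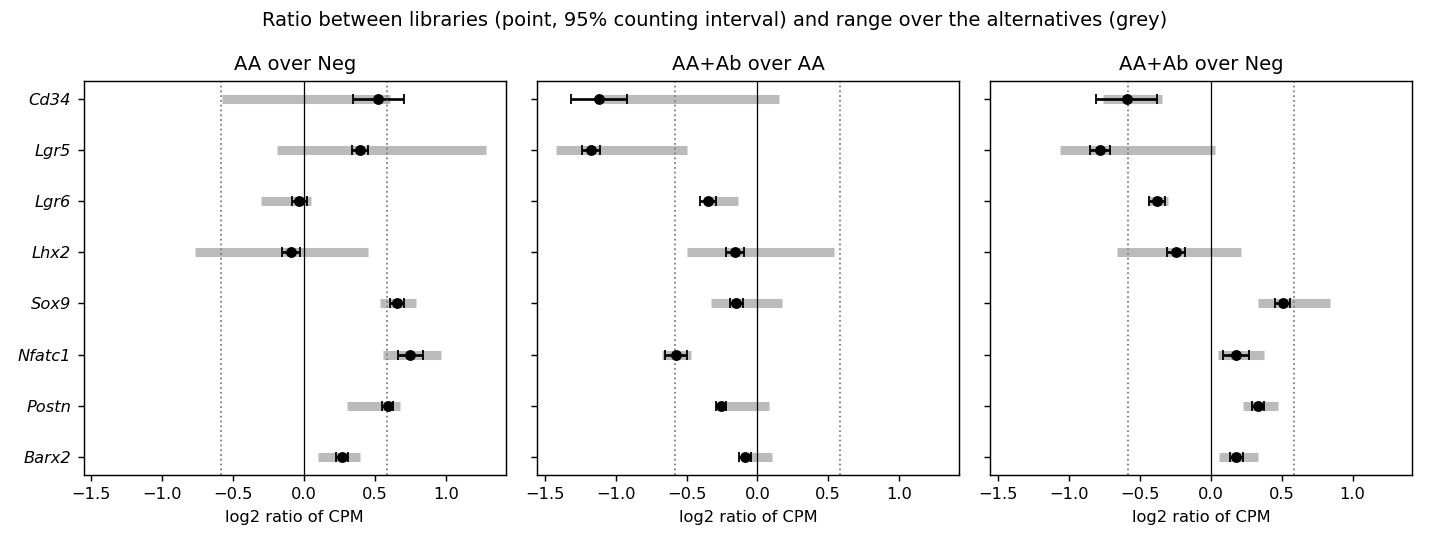
Log2 ratio of CPM between libraries for each gene (black points, with the 95% counting interval) and the range of that ratio over 15 alternative settings (grey bars); dotted lines mark 1.5-fold. *Sox9*, *Nfatc1*, *Postn* and *Barx2* stayed above 0 in AA over Neg, and *Lgr5*, *Lgr6* and *Nfatc1* below 0 in AA+Ab over AA, in all settings.

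The gate was split, in this order, into hair lineages (at least 10 UMIs of *Krt25*, *Krt27*, *Krt71* and *Krt35*), upper follicle (at least 3 of *Krt79*), suprabasal cells (*Krt1* and *Krt10* above *Krt5* and *Krt14*), cycling cells (at least 3 of *Mki67* and *Top2a*) and the remaining cells. The subset with the highest level was the same in the 3 libraries for each gene except *Lhx2* (plot of levels by subset). *Lgr5* was highest in cycling cells, at 142 CPM in Neg, 129 in AA and 74.7 in AA+Ab, against 26.9, 46.9 and 17.5 in remaining cells. *Lhx2* was high in hair lineages (75.2, 93.3 and 73.0 CPM) and in cycling cells (80.5, 75.0 and 62.8), and low in remaining cells (13.5, 16.6 and 13.3). *Lgr5* in hair lineages, at 37.2, 58.1 and 20.2 CPM, was closer to its level in remaining cells than to that in cycling cells.

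*Sox9*, *Nfatc1* and *Barx2* were highest in the upper follicle cells with *Krt79*. There *Sox9* was at 289 CPM in Neg, 537 in AA and 353 in AA+Ab, against 46.4, 70.1 and 74.3 in remaining cells. *Barx2* was at 238, 252 and 212 CPM there, and *Nfatc1* at 61.1, 59.6 and 51.7, with overlapping Neg and AA intervals for both. The AA over Neg difference of *Nfatc1* was instead seen in remaining cells, at 19.9 CPM in Neg, 34.5 in AA and 23.2 in AA+Ab, and in cycling cells, at 11.9, 22.8 and 12.7. *Postn* was highest in remaining cells (136, 180 and 168 CPM), as was *Cd34* (6.60, 8.39 and 4.31 CPM). *Lgr6* was at 63.5, 54.4 and 48.8 CPM in remaining cells and at 68.4, 62.1 and 53.6 in cycling cells, where its intervals overlapped between Neg and AA.

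*Lgr5* and *Cd34* are the pair that was past 1.5-fold lower in AA+Ab over AA. For *Lgr5* the log2 ratio was −1.53 in hair lineages, −0.79 in cycling cells and −1.42 in remaining cells, with intervals that excluded 0, and −0.24 in upper follicle cells with an interval that held 0. For *Cd34* it was −0.96 in remaining cells and −0.95 in cycling cells, with intervals that excluded 0. In upper follicle cells 4 UMIs in AA+Ab and 16 in AA gave −2.75, also with an interval that excluded 0. In hair lineages 38 UMIs in AA+Ab and 32 in AA gave −0.16 with an interval that held 0. The interval in suprabasal cells, with 1 UMI in AA+Ab and 5 in AA, held 0 too. When the subsets were given their Neg shares, the AA over Neg log2 ratio of *Lhx2* was 0.21 in place of −0.09, and that of *Nfatc1* 0.56 in place of 0.75.

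**Figure D3:**
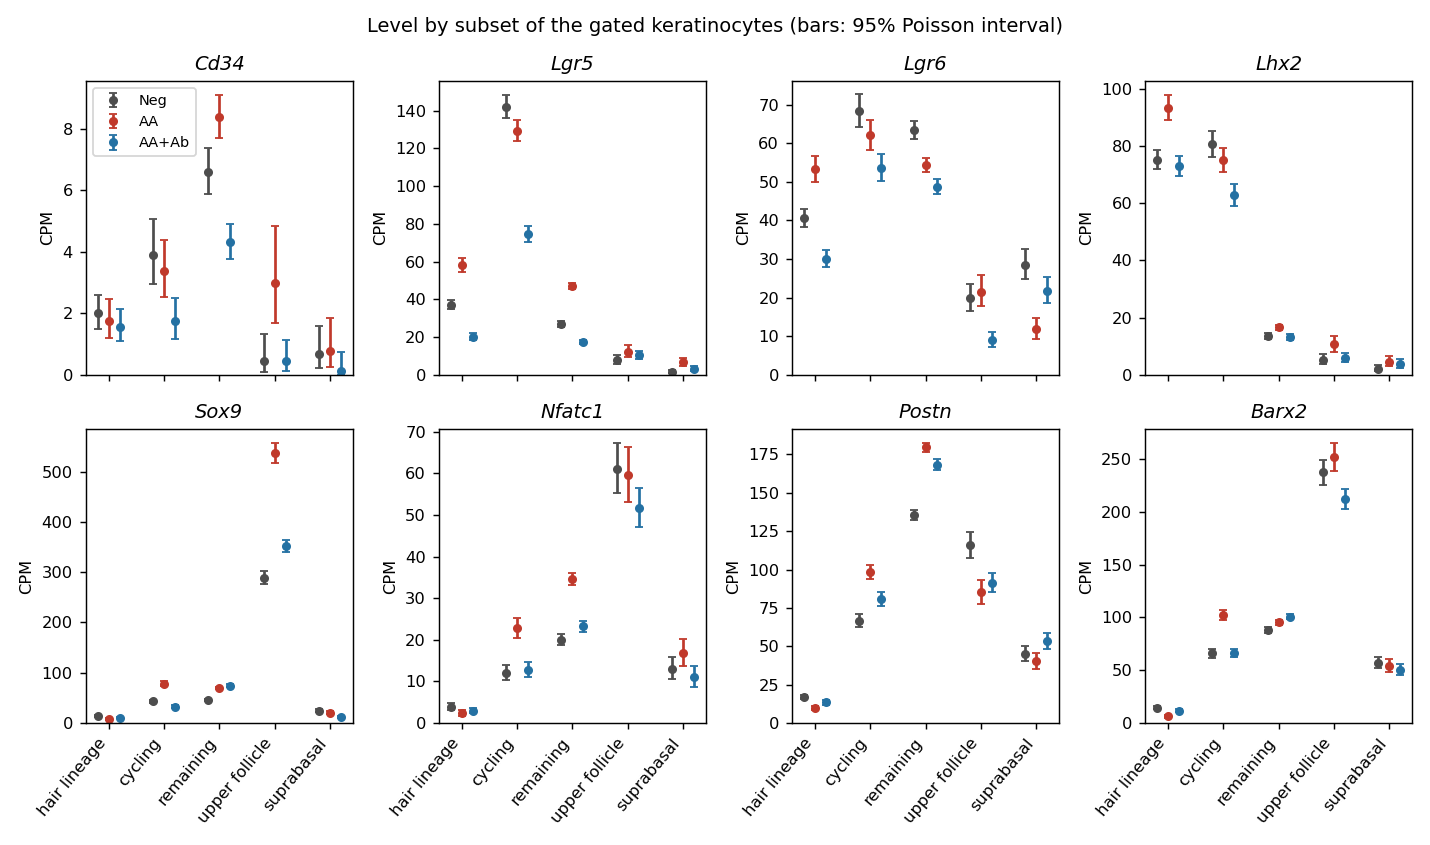
Level of each gene in 5 subsets of the gated keratinocytes, in CPM on axes that start at 0, with 1 point per library and bars for the 95% Poisson interval. *Sox9*, *Nfatc1* and *Barx2* peak in the upper follicle subset, *Lgr5* in cycling cells, *Lhx2* in hair lineages and cycling cells, and *Cd34* and *Postn* in the remaining cells.

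Cells with at least 5 UMIs of a member show which kind of keratinocyte carried it (plot of markers in such cells). Cells high in *Cd34* had *Krt15* at 6384 CPM in Neg, 6090 in AA and 7465 in AA+Ab, above the 3184, 3332 and 3214 of the whole gate. *Mki67*, a marker of cycling cells, was at 159 (130 to 191), 44.4 (30.2 to 63.1) and 17.2 (3.55 to 50.3) CPM in them, against 182, 178 and 195 in the gate. They were thus high in *Krt15* and, in AA and AA+Ab, low in *Mki67*, but they also carried *Col1a2* (above).

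Cells high in *Lgr5* included 11 of the 29, 14 of the 56 and 6 of the 17 *Cd34*-high cells. As a whole they had *Krt15* at 1610, 1458 and 1490 CPM and *Mki67* at 487, 482 and 464. Cells high in *Lhx2* had the least *Krt15* (1077, 910 and 962 CPM) and *Mki67* at 521, 555 and 530. Of the *Lhx2*-high cells, 51.0%, 43.4% and 47.8% were in the hair lineages. Cells high in *Lgr6* were also above the gate in *Mki67*, at 334, 491 and 598 CPM. The median depth of *Lgr5*-high cells was 29516, 23117 and 23978 UMIs, above that of the gate, and choosing cells by a UMI minimum favours deep cells.

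Cells high in *Sox9* had *Krt79* at 1495, 997 and 1931 CPM, against 181, 130 and 246 in the gate, and *Krt17* at 2823, 2557 and 4272. Cells high in *Nfatc1* had *Krt79* at 2536, 1027 and 2734 CPM, but they were only 42, 59 and 32 cells. In AA, 57.6% of the *Nfatc1*-high cells were remaining cells and 22.0% upper follicle cells, against 11.9% and 66.7% in Neg and 34.4% and 62.5% in AA+Ab. The median depth of these cells was 59319 UMIs in Neg, 21343 in AA and 29200 in AA+Ab. Both the choice of cells and the upper follicle subset rest on UMI minima, and the part of depth in these shares was not tested. Cells high in *Postn* had *Krt15* near that of the gate (3377, 3361 and 3265 CPM). Cells high in *Lgr6*, *Sox9*, *Nfatc1* and *Barx2* were below the gate in *Krt15* in each library, as were those high in *Lgr5* and *Lhx2*.

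Over all cells with at least 1 UMI of a member, *Krt15* gave another picture for several genes. In cells with *Cd34* it was at 3884 CPM in Neg, 3371 in AA and 2426 in AA+Ab, against 3164, 3331 and 3235 in cells without, so the excess in the cells with 5 or more UMIs was not shared by all cells with *Cd34*. Cells with *Postn* were above those without it in each library, at 3892, 3907 and 4004 CPM against 2296, 2611 and 2296. So were cells with *Barx2*, at 3737, 3707 and 3681 CPM against 2684, 3029 and 2826, and, by less, cells with *Lgr6* (3428, 3394 and 3464 against 2972, 3296 and 3080) and *Nfatc1* (3264, 3583 and 3456 against 3158, 3246 and 3148). Cells with *Lgr5*, *Lhx2* and *Sox9* were below those without them at either minimum, and *Krt15* in cells with *Lhx2* was at 1168, 1037 and 1048 CPM against 4224, 4077 and 4079. The 8 genes named for the bulge thus did not mark 1 kind of *Krt15*-high keratinocyte in these libraries, and for *Cd34* the comparison depended on the minimum.

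**Figure D4:**
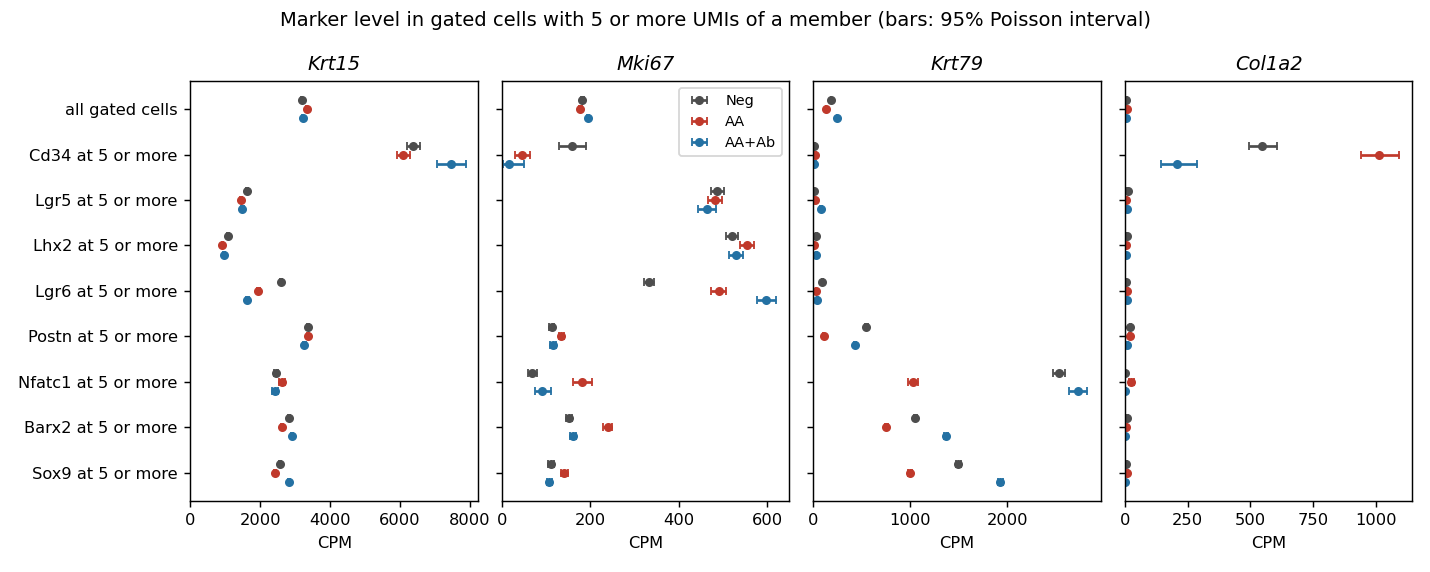
Level of 4 marker genes, in CPM on axes that start at 0, in all gated cells and in gated cells with 5 or more UMIs of each member; points are libraries and bars 95% Poisson intervals. *Cd34*-high cells are above the gate in *Krt15* and *Col1a2*, *Lgr5*-, *Lhx2*- and *Lgr6*-high cells in *Mki67*, and *Sox9*-, *Nfatc1*- and *Barx2*-high cells in *Krt79*.

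Co-detection was compared at 5000 UMIs per cell, as the odds of finding the second gene in cells with the first over those in cells without it. *Lgr5* and *Lhx2* were found together with an odds ratio of 15.6 in Neg, 22.1 in AA and 13.6 in AA+Ab. Of the cells with *Lgr5* at that depth, 53.5%, 54.0% and 47.3% also had *Lhx2*, against 6.88%, 5.03% and 6.19% of the cells without it. *Cd34* went with both, at odds ratios of 23.1, 18.6 and 23.1 with *Lgr5* and 17.0, 19.4 and 14.7 with *Lhx2*, and with *Sox9* at 11.1, 14.4 and 7.34. It was also found with *Postn* (6.34, 5.59 and 3.67) and *Barx2* (4.53, 3.95 and 2.68). These describe cells of 1 library each, and no intervals were computed for the odds ratios. *Cd34* was found in 117, 184 and 143 cells at full depth. At 5000 UMIs it is expected in 1.27%, 1.39% and 0.833% of gated cells, so its odds ratios rest on fewer cells.

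*Sox9* and *Barx2* were found together at odds ratios of 4.79, 3.77 and 4.76, with *Nfatc1* joined to *Sox9* at 3.08, 2.31 and 3.15 and to *Barx2* at 2.01, 1.49 and 2.19. *Postn* was found with these 3 genes too, at 1.85, 1.59 and 1.68 with *Barx2*, 1.80, 1.44 and 1.42 with *Sox9* and 1.63, 1.41 and 1.38 with *Nfatc1*. *Lgr6* and *Sox9* kept apart, at 0.275, 0.455 and 0.247. So did *Lhx2* and *Postn*, at 0.524, 0.605 and 0.472, and *Lgr5* and *Nfatc1*, at 0.649, 0.459 and 0.624. *Sox9* was also found with *Lgr5*, at 2.12, 3.97 and 2.17. The sign of each of these log odds ratios was the same in the 3 libraries. At 5000 UMIs 9.56% of gated cells in Neg, 11.97% in AA and 10.8% in AA+Ab had 3 or more of the 8 genes, and in the unthinned cells 36.1%, 32.6% and 31.7%. A UMI of every member was found in 6 of 5084 cells in Neg, 9 of 8176 in AA and 2 of 7309 in AA+Ab.

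**Figure D5:**
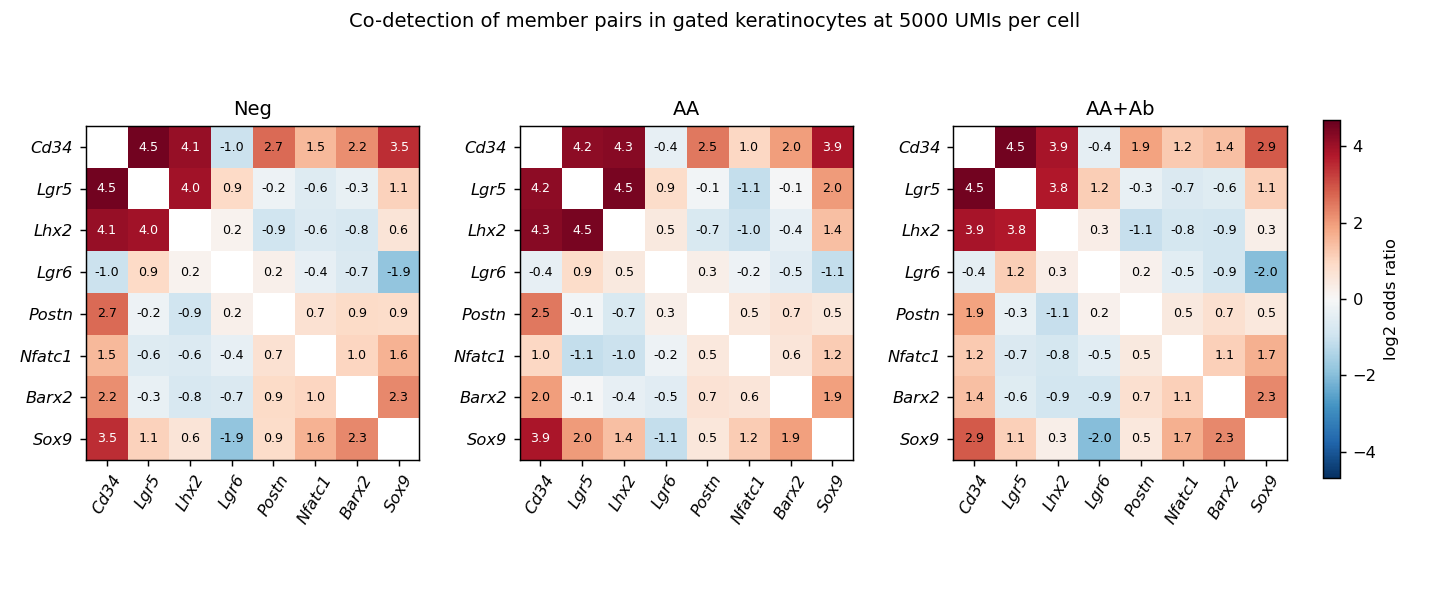
Log2 odds ratio of co-detection for each pair of members in gated keratinocytes, with cells thinned to 5000 UMIs, for each library; red marks pairs found together more often than apart, and blue the opposite. *Cd34*, *Lgr5* and *Lhx2* form the red block at the top left, *Postn*, *Nfatc1*, *Barx2* and *Sox9* a paler one at the bottom right, and *Lgr6* with *Sox9* is blue.

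For the other members the share of *Ptprc*-positive keratin-low cells with a UMI was low: 0.631% to 1.59% for *Lgr5*, 0.315% to 2.77% for *Lgr6*, 2.83% to 4.10% for *Lhx2*, 1.04% to 2.21% for *Sox9*, 1.56% to 3.18% for *Postn* and 0.865% to 1.77% for *Barx2*. At 2000 UMIs the gated shares remained above those of *Ptprc*-positive cells for each of these genes in each library. The nearest was *Lhx2*, at 4.89%, 4.07% and 3.89% in the gate against 1.56%, 1.33% and 1.38%.

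Outside the gate, *Cd34* was highest in fibroblasts. In *Ptprc*-negative keratin-low cells with at least 10 UMIs of *Col1a1*, *Col1a2*, *Col3a1*, *Lum* and *Pdgfra*, it was at 628 CPM in Neg (41 cells), 518 in AA (123 cells) and 207 in AA+Ab (51 cells). The AA+Ab library was lowest there too, and its interval (166 to 256) did not reach that of AA (470 to 569). *Postn* was at 256, 337 and 558 CPM in these cells, in the order Neg, AA, AA+Ab, unlike in the gate. In keratin-low cells that reached 10 UMIs of the list only with *Dcn* (73, 71 and 145 cells), *Lhx2* was at 112, 109 and 100.1 CPM, whereas *Cd34* gave only 2, 7 and 1 UMIs. In 15, 11 and 23 cells of the endothelial list, *Cd34* was at 85.3, 82.3 and 82.5 CPM.

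The wider pathways were described from lists of related genes. Of 24 other bulge and follicle stem cell genes, 1 (*Dkk3*) was past 1.5-fold higher in AA over Neg and 0 lower, 0 higher and 5 lower in AA+Ab over AA, and 1 higher and 3 lower in AA+Ab over Neg. The shares over all genes were 4.99% higher and 9.36% lower, 4.66% and 9.53%, and 2.17% and 9.6%, in the same order. The median log2 ratios were 0.19, −0.30 and −0.07, beside the all-gene medians given above. *Dkk3*, a secreted Dickkopf family protein, was at 6.92 CPM in Neg, 10.7 in AA and 7.17 in AA+Ab. *Tle4*, a Groucho corepressor, was at 145, 214 and 173 CPM. *Id2* and *Id3*, inhibitors of DNA binding that act in BMP signalling, had the lowest AA over Neg ratios of the list, 0.818 and 0.857. The 5 genes past 1.5-fold lower in AA+Ab over AA, named after their values were seen, were *Itgb6*, *Fgf18*, *Bmp6*, *Tbx1* and *Krt24*, with ratios of 0.406, 0.527, 0.598, 0.598 and 0.615. *Krt15* was within 1.05-fold in every comparison.

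Of 9 Wnt partners of the LGR receptors with enough UMIs, 0 were past 1.5-fold in AA over Neg, and 1 was higher in AA+Ab over AA. This was *Rspo2*, an R-spondin, which rested on levels of 0.188, 0.173 and 0.330 CPM. *Rspo3* was at 24.5, 31.5 and 23.5 CPM. *Znrf3*, the ubiquitin ligase that R-spondins and LGR receptors inactivate, was at 164, 171 and 138 CPM, and *Axin2*, a Wnt target, at 27.9, 25.2 and 29.3.

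Of 10 hair germ and matrix genes, 0 were past 1.5-fold higher and 1 lower in AA over Neg, *Foxn1* (7.65, 4.35 and 4.18 CPM), the factor that is lost in nude mice. *Shh*, the ligand of growing follicles, was at 7.81, 8.20 and 13.3 CPM, the Wnt inhibitor *Wif1* at 22.0, 29.9 and 35.2, and *Dlx3* at 52.5, 41.7 and 45.6. Of 8 upper follicle genes, 4 were higher and 1 lower in AA+Ab over AA, beside 4.66% and 9.53% of all genes, with a median log2 ratio of 0.71. *Krt79* was at 181, 130 and 246 CPM and the protease inhibitor *Cst6* at 265, 181 and 434, whereas *Plet1* was at 160, 251 and 107 and *Lrig1* at 66.0, 75.4 and 60.7. The share of upper follicle cells was also highest in AA+Ab, at 3.70%, 3.57% and 5.77% of the gate, and its part in these ratios was not tested. Of 10 interfollicular basal genes, 3 were higher and 1 lower in AA over Neg. The thrombospondin gene *Thbs1* was at 302, 499 and 221 CPM, *Ly6a* (Sca-1) at 55.9, 104 and 79.2, *Mt2* at 1899, 1225 and 1428, and the collagen VII gene *Col7a1* at 38.8, 38.7 and 37.7.

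The genes most enriched in cells with a member, by the lowest of the 3 ratios of CPM between gated cells with and without it, are described last. For *Cd34* they were *Clec3b*, *Rarres2* and *Grem1*, at least 44.3 times as high in cells with *Cd34* in each library, and *Col1a2*, named after its values were seen, ranked 10 of 6657 (23.0 times). For *Lgr5* they were *A930009A15Rik*, which overlaps it on the opposite strand and whose reads may not be separable from it, *Prss35* and *Kcnb2*, at least 24.0 times. For *Lhx2* they were *Mgat4e*, *A930009A15Rik* and *Ntn1*, at least 26.5 times. For *Lgr6* they were *Ntn1*, *Sox5* and *Sox5os4*, at least 3.42 times.

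For *Sox9* the leading genes were *Wfdc18*, *Krt79* and *Defb6*, at least 34.1 times as high, and for *Barx2* they were *Wfdc18*, *Klk7* and *Gsdma3*, at least 10.7 times. For *Nfatc1* they were *Teddm3*, *Klk7* and *Cdsn*, at least 5.43 times, and for *Postn* they were *Grem1*, *Scrg1* and *Gfra2*, at least 5.15 times. Each ranking covered genes with at least 50 UMIs in the cells with the member in each library, and is a description.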

How the data were processed

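Dorsal skin cells of 3 groups (Neg, AA, AA+Ab), 1 pooled library each, were run on the 10x Genomics 3′ v3.1 chemistry. Per the labels, the authors processed the reads with Cell Ranger 7.2.0 (FastQC 0.11.7 is also named) on mm10. The annotation release, the strand setting and the use of intronic reads are not given in the sources used here. The deposited values are raw UMI counts per gene and barcode, without normalization. 0 columns of other samples were found.

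Cells over 10% mitochondrial UMIs or under 200 genes were left out, as in the study, and doublets were not removed. CPM is summed UMIs per 1000000 UMIs of the same cells, with Poisson intervals at 95%. Ratios have exact conditional binomial intervals and shares Clopper-Pearson intervals, all for counting error only. No test between groups was made, and called means past 1.5-fold among genes with at least 50 UMIs over the libraries. Shares at 5000 or 2000 UMIs are expected values under thinning without random draws. At 5000 UMIs, 138, 390 and 389 shallower gated cells were left out in Neg, AA and AA+Ab. *Krt85*, 1 of the 5 genes meant for the hair lineage subset, was not used here. The fibroblast, endothelial, muscle, melanocyte and immune lists have 6 genes each. The genes named are the 8 members, the 3 genes most enriched with each, and for each list the 2 highest and 2 lowest AA over Neg ratios. The members and lists were chosen with earlier results of these data known. Subsets were weighted, gates moved and cells left out as alternatives, 4 of them added after the data were seen. The ratio calculation was checked on simulated independent Poisson counts of 17055 genes, without clustering of UMIs in cells or differences between mice. The right direction was found for 189 of 189 changed genes with enough UMIs in AA over Neg, 188 of 188 in AA+Ab over AA and 192 of 192 in AA+Ab over Neg. Python 3.11.15, numpy 2.4.6, scipy 1.17.1, pandas 2.3.3 and matplotlib 3.10.9 were used.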

Additional observations from a re-analysis of the deposited data

Results flagged for a closer look

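In 9 instances, over the 8 members and all comparisons of libraries, a member lay on opposite sides of equal CPM in the hair lineage subset and in the remaining cells. Both counting intervals were clear of 0. The share of all genes that did so was not counted, so the number is not read as a trait of the members. The difference between subsets was not tested in any instance, since each group is 1 library.

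In AA over Neg, the log2 ratio in hair lineages was −0.90 for *Sox9*, −0.74 for *Nfatc1*, −0.80 for *Postn* and −1.24 for *Barx2*, while in remaining cells it was 0.60, 0.79, 0.41 and 0.11. These 4 genes were low in hair lineages in every library: *Barx2* was at 14.5 CPM in Neg, 6.13 in AA and 11.3 in AA+Ab, against 88.1, 95.3 and 100.9 in remaining cells. *Lgr6* was the other way round, at 0.39 in hair lineages and −0.22 in remaining cells.

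For AA+Ab over Neg, *Sox9* was at −0.44 in hair lineages and 0.68 in remaining cells, *Postn* at −0.32 and 0.31, and *Barx2* at −0.35 and 0.20. For AA+Ab over AA, *Postn* was at 0.47 in hair lineages and −0.09 in remaining cells. The comparisons share libraries, so these instances are not independent.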

How the results depend on the processing

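No paired analysis was possible because each group is 1 library and no replicate was left out for the same reason. Of the values for single members under an alternative, 231 stayed within their counting interval, 227 moved outside it and 22 reversed. Of the medians, counts and shares, 112 stayed within the limit set (0.1 on the log2 scale for a median, 1.5 times for a count, the counting interval for a share), 49 moved past it and 1 reversed.

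With *Krt5* and *Krt14* at 1% of UMIs (2715, 4801 and 3994 cells), the log2 ratio reversed for *Cd34* in AA over Neg (−0.58) and, in AA+Ab over AA, for *Cd34* (0.15), *Lhx2* (0.54), *Sox9* (0.18), *Postn* (0.044) and *Barx2* (0.10). For AA+Ab over Neg it reversed for *Lgr5* (0.028) and *Lhx2* (0.20). The medians were then 0.23, 0.073 (reversed) and 0.18. The members past 1.5-fold were 1 lower in AA+Ab over AA, and 1 higher and 0 lower in AA+Ab over Neg.

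Without cells with 2 UMIs of the fibroblast, endothelial, muscle or melanocyte lists (1273, 3625 and 2339 cells left), *Lhx2* reversed in AA over Neg (0.45) and in AA+Ab over Neg (0.21). For AA+Ab over AA, *Sox9* (0.0081), *Postn* (0.079) and *Barx2* (0.083) reversed, the median was −0.19, and in AA+Ab over Neg it was 0.20 with 1 member higher and 0 lower. Without cells with 2 UMIs of the fibroblast list, *Lhx2* in AA over Neg was 0.026 and *Barx2* in AA+Ab over AA 0.025, and 1 member was higher and 1 lower in AA+Ab over Neg. With *Dcn* left out of that list, 1 was lower.

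In the remaining subset alone, *Lhx2* in AA over Neg was 0.29, *Sox9* and *Barx2* in AA+Ab over AA 0.083 each, the median of AA+Ab over Neg 0.085, and 1 member was higher there. Without the hair lineages, *Lhx2* in AA over Neg was 0.031, and with subsets at their Neg shares 0.21, where the median was 0.28. Without the cells with most UMIs, *Lgr5* in AA over Neg was −0.19 and *Lhx2* in AA+Ab over AA 0.11, with 1 member lower in AA over Neg and 1 higher in AA+Ab over Neg.

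In AA over Neg, the members past 1.5-fold higher were 1 in place of 3 at 5% mitochondrial UMIs, at 30 keratin UMIs (median 0.31), without the hair lineages and with subsets at their Neg shares. In AA+Ab over Neg, 1 member was higher and 1 lower relative to the median of all genes and with each cell given the same weight (median of AA+Ab over AA −0.20), and 1 was lower with the other denominator. The cause of these moves was not tested.

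Genes past 1.5-fold were 1257, 1359 and 891 with at least 200 UMIs, 5357, 5261 and 4981 with only 1 UMI required in each library, and 882, 849 and 778 at 2-fold, in place of 2448, 2420 and 2007. The share of cells with 3 or more members was 9.56%, 11.97% and 10.8% at 5000 UMIs, 2.68%, 3.93% and 2.83% at 2000 UMIs, 30.7%, 30.1% and 28.2% with the 1% gate, and 33.3%, 29.9% and 29.3% without the cells with most UMIs. *Cd34* rests on the fewest UMIs of the members, 307 to 685 in a library.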
